A study of Mus musculus with 4 samples.

Results

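The antioxidant genes described here are 10 targets of the transcription factor Nrf2, *Hmox1*, *Nqo1*, *Gclm*, *Gclc*, *Gsr*, *Srxn1*, *Txnrd1*, *Prdx1*, *Txn1* and *G6pdx*. They were chosen by name as known Nrf2 targets, with earlier results of these data already known. They are 10 of the 20133 genes that the array's probes could be named for. All 10 had a probe, and 13 probes were found in all, since *Hmox1*, *Gsr* and *Prdx1* had a pair each. Of the 10 genes, 9 were well above background on every array, and *Nqo1* was not well above background on any of them.

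Nrf2 is kept scarce in unstressed cells because the adaptor Keap1 presents it to a ubiquitin ligase built on Cul3, and the proteasome then degrades it. When it escapes degradation, Nrf2 pairs with a small Maf protein and binds the antioxidant response element, a short sequence near genes for glutathione synthesis, thioredoxin cycling, NADPH supply and heme breakdown. Bach1 is a repressor that occupies the same elements, above all those of *Hmox1*. In macrophages these enzymes deal with the peroxides of the cell's own oxidative burst and with heme from ingested red cells.

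J774.1 is an established mouse monocyte-macrophage line, and all values come from this single line. Cells were kept for 4 hours with 1 of 3 proteasome inhibitors at 1 μM or with DMSO, the solvent of the inhibitors, and the total RNA of each treatment was hybridized to 1 array. MG132 is a proteasome inhibitor, the labels describe epoxomicin as acting on the 20S proteasome, and ONX0914 is described as an inhibitor of the β5 and β5i subunits. The treatment label of the ONX array reads ONX-0912, whereas the treatment protocol that all samples share names ONX0914, and ONX0914 is the name used here. The labels alone do not settle which compound this array received. The study addressed gene expression after proteasome inhibition.

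All 4 arrays were on 1 slide, and the headers describe a mouse design although the Methods name a human one. Each array held 43020 spots that were not controls, no spot was saturated, and 60.3% to 63.1% of the spots were well above background. The 75th percentile of the signal, which was used to scale the arrays, was 1654 for DMSO, 1453 for MG132, 1683 for epoxomicin and 1612 for ONX0914. All 7 macrophage markers with a probe, *Adgre1*, *Csf1r*, *Itgam*, *Lyz2*, *Cd14*, *Fcgr1* and *Ptprc*, stood well above background throughout, with a summed signal of 276484 to 358375, while *Cd68* had no probe. Of the 9 probed markers of other cell types, the T cell genes *Cd3e* and *Cd4* were well above background, and the summed signal of the 9 was 4522 to 5364. For DMSO the signal was 849 for *Cd3e* and 4293 for *Cd4*, while the macrophage markers ran from 440 (*Adgre1*) to 210824 (*Csf1r*). Signals of different probes cannot be compared, so the sums give no share of a cell type. No probed marker of B cells, NK cells, fibroblasts, epithelium or liver was well above background, and the neutrophil marker *Ly6g* had no probe. The 7 macrophage markers had a median log2 difference from DMSO of −0.13 under MG132, −0.05 under epoxomicin and −0.03 under ONX0914. They ranged from −0.60 (*Lyz2*) to 0.35 (*Itgam*) under MG132, from −1.01 (*Lyz2*) to 0.21 (*Ptprc*) under epoxomicin and from −0.29 (*Itgam*) to 0.21 (*Ptprc*) under ONX0914.

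The antioxidant response element has a core of TGACNNNGC, and the promoters below are shown because each of them holds this core in capitals, on one strand or the other. RefSeq (GRCm38.p6) gave promoter windows, from 250 bases before to 50 bases after a gene's start, for 7 of the 10 genes, with 9 windows in all because *Txnrd1* has several starts. *Hmox1*, *Gclc* and *Gsr* had no entry. The sequences are the 250 bases before the start, 5′ to 3′ on the strand of the gene, at chr3:122245307-122245556 (plus strand) for *Gclm*, chr10:82858956-82859205 (plus) for *Txnrd1*, chr4:116685349-116685598 (plus) for *Prdx1* and chrX:74428881-74429130 (minus) for *G6pdx*. In the *Prdx1* sequence, capitals also mark the AP-1 motif TGANTCA.
*Gclm*: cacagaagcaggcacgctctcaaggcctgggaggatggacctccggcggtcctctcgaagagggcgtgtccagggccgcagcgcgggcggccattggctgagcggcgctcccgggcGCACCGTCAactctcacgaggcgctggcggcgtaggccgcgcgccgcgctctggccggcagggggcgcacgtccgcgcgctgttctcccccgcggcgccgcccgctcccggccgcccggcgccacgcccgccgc
*Txnrd1*: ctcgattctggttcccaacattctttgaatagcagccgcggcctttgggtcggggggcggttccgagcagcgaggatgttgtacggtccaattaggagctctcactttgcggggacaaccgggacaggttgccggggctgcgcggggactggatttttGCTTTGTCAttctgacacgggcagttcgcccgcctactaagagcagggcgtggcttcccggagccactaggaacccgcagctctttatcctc
*Prdx1*: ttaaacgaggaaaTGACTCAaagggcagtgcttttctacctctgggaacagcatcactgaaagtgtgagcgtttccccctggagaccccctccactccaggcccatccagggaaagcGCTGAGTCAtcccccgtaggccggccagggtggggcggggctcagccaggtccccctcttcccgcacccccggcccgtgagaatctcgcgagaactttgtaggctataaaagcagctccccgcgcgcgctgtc
*G6pdx*: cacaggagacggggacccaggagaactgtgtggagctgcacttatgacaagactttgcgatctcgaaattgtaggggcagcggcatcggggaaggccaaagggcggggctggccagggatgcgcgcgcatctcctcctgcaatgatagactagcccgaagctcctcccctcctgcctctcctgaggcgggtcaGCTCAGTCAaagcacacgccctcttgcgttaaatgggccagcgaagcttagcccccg

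The core lay 134 bases before the start in *Gclm*, 92 in *Txnrd1*, 133 in *Prdx1* and 57 in *G6pdx*. *Srxn1* held it as well, 29 bases after the start, and so 5 of the 7 genes (5 of 9 windows) held the core. Of all 32851 RefSeq windows of this length, 12.4% held it, and 14.0% of the 27025 genes with a window did. The genes were chosen as known Nrf2 targets, so their share beside that of all windows is a description only. The stricter form of the core, with a further A at its end, was found in the *Txnrd1* window alone among the 9 and in 3.04% of all windows. The core of *Prdx1* overlapped an AP-1 motif, of which this window held 2.

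The upstream sequence of *Srxn1*, at chr2:152105274-152105523 (plus strand), is shown for its 2 AP-1 motifs, in capitals, which lay 102 and 45 bases before the start.
*Srxn1*: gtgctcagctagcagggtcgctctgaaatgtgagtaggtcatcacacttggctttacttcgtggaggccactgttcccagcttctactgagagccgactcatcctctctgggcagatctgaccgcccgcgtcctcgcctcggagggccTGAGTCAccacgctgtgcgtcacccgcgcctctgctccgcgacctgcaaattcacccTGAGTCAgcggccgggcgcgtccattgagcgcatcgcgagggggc

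The AP-1 motif was found in 2 of the 9 windows, those of *Srxn1* and *Prdx1*, and in 7.81% of all windows. The windows of *Nqo1* and *Txn1* and the other 2 windows of *Txnrd1* held neither motif. The core was present in genes on both sides of the 2-fold threshold used below, with *Gclm* and *Srxn1* above it and *Txnrd1*, *Prdx1* and *G6pdx* below it. These matches describe the letters of the windows, and binding was not measured.

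With each inhibitor, the same 3 of the 9 genes compared had a signal at least 2-fold above that of DMSO. They were *Hmox1*, which encodes the heme-degrading enzyme heme oxygenase 1, *Gclm*, the modifier subunit of the ligase for the first step of glutathione synthesis, and *Srxn1*, which encodes sulfiredoxin, an enzyme that repairs overoxidized peroxiredoxins. *Hmox1* differed most with MG132 (5.53-fold) and epoxomicin (4.90-fold), and *Gclm* differed most with ONX0914 (2.56-fold). *Txnrd1* came next, below the threshold with each inhibitor, and the other 5 genes differed by 0.60 at most on the log2 scale. None of the 9 was 2-fold lower. The values come from bulk RNA, so fewer cells of a kind and less RNA per cell cannot be told apart.

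The threshold for a higher or lower gene was a 2-fold difference between the array of an inhibitor and the DMSO array, which is 1 on the log2 scale. The background share was 7.24% of 13769 genes higher with MG132, 8.41% of 13869 with epoxomicin and 3.27% of 13793 with ONX0914, against 33.3% of the 9 antioxidant genes in each case. The share of genes at least 2-fold lower was 3.65%, 4.49% and 1.41%, against 0 of the 9. The median difference of the 9 genes was 0.47 for MG132, 0.33 for epoxomicin and 0.60 for ONX0914, and the median of all genes was −0.02, −0.04 and −0.01. The single DMSO array enters all 3 comparisons, and they are not independent of each other. With 1 array per treatment, no test of these differences was possible, and none has a replicate check. The genes were chosen with earlier results of these data known, so their share beside that of all genes is a description only.

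The error given with a difference is the scanner software's own estimate for both signals, 0.20 on the log2 scale for each difference of the 9 genes. On every array the median of this estimate was 10.0% of the signal over probes well above background. Each probe of these genes had 1 spot, so the error is not a spread measured for the gene. It covers one hybridization and leaves out the spread between cultures.

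**Figure D1:**
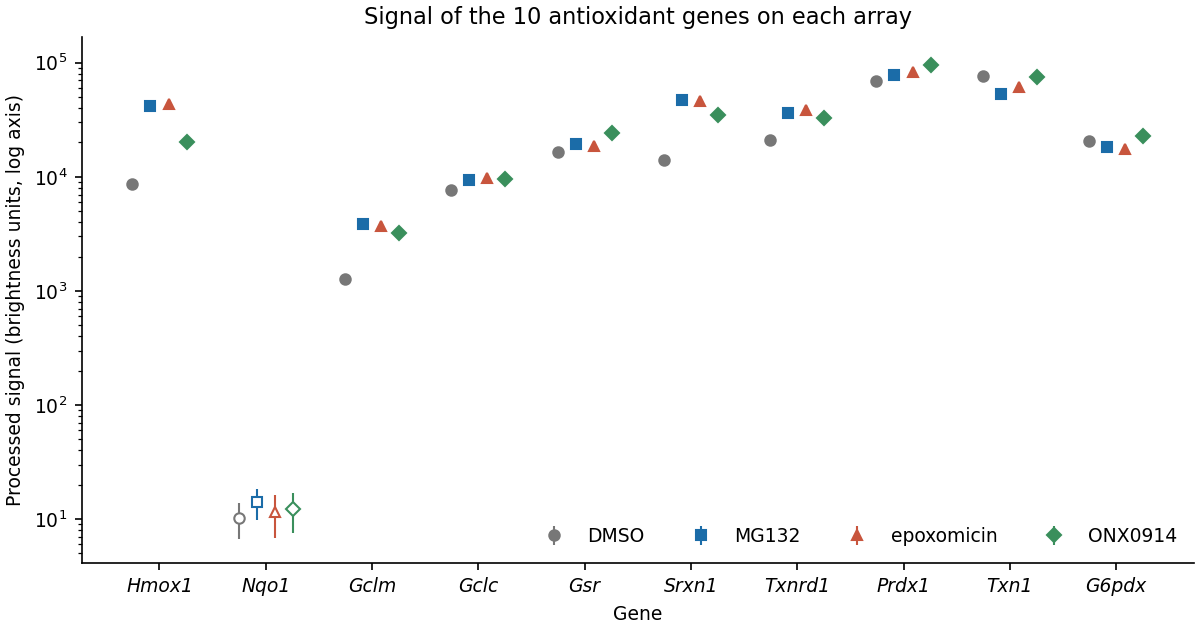
Processed signal (brightness units, log axis) of the probe that stands for each of the 10 genes on the DMSO, MG132, epoxomicin and ONX0914 arrays; bars are the software's signal error, and open symbols are signals not well above background. The 3 inhibitor arrays lie clearly above DMSO for *Hmox1*, *Gclm*, *Srxn1* and *Txnrd1*, while *Nqo1* lies between 10.2 and 14.1 on all arrays; heights of different genes come from different probes and cannot be compared.

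*Hmox1* (NM_010442) had a processed signal of 8672 for DMSO, 42152 for MG132, 43209 for epoxomicin and 20191 for ONX0914. The DMSO array was the lowest, the MG132 and epoxomicin arrays were nearly level, and the ONX0914 array lay between. After scaling, it differed from DMSO on the log2 scale by 2.47 ± 0.20 for MG132, 2.29 ± 0.20 for epoxomicin and 1.26 ± 0.20 for ONX0914. These values put the gene in place 165, 254 and 314 from the top among the genes compared. A further probe of the same transcript, with signals of 916, 3944, 3593 and 1912 in the same order, gave differences of 2.29, 1.95 and 1.10. Both probes ordered the arrays alike after scaling, with MG132 highest and DMSO lowest.

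*Nqo1* (NM_008706) encodes a quinone reductase that is widely used as a readout of Nrf2. Its signal was 10.2 for DMSO, 14.1 for MG132, 11.5 for epoxomicin and 12.2 for ONX0914, and none of these was well above background. The lowest signals that the software called well above background were 14.7, 17.8, 20.3 and 19.3 on the same arrays. Each signal of *Nqo1* was under that limit of its own array, and so the gene entered no comparison.

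Glutathione is the cell's main small thiol, and its first step of synthesis is carried out by a ligase of a catalytic subunit, *Gclc*, and a modifier subunit, *Gclm*. *Gclm* (NM_008129) had a signal of 1283 for DMSO, 3857 for MG132, 3711 for epoxomicin and 3201 for ONX0914. It differed from DMSO by 1.77 ± 0.20, 1.51 ± 0.20 and 1.36 ± 0.20 on the log2 scale, or 3.42-, 2.84- and 2.56-fold. The signal of *Gclc* (NM_010295) was 7643, 9288, 9806 and 9608 in the same order. Its differences were 0.47 ± 0.20, 0.33 ± 0.20 and 0.37 ± 0.20, larger than the error of the signals and under the 2-fold threshold. On these arrays *Gclm* thus passed 2-fold with every inhibitor, and *Gclc*, its partner subunit, was 1.38-fold higher at most.

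*Gsr* (NM_010344) encodes glutathione reductase, which returns oxidized glutathione to its thiol form with NADPH. Its signal was 16354 for DMSO, 19278 for MG132, 18492 for epoxomicin and 24231 for ONX0914, which was the highest of the arrays. On the log2 scale it differed from DMSO by 0.42 ± 0.20 for MG132, 0.15 ± 0.20 for epoxomicin and 0.60 ± 0.20 for ONX0914. Its other probe gave 0.43, 0.18 and 0.59. The epoxomicin value lay within the error of the signals with both probes.

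The thioredoxin and peroxiredoxin enzymes reduce peroxides and protein disulfides. *Srxn1* (NM_029688) had a signal of 13916 for DMSO, 46997 for MG132, 46324 for epoxomicin and 34574 for ONX0914, and its 3 inhibitor arrays all stood above DMSO. The log2 difference was 1.94 ± 0.20, 1.71 ± 0.20 and 1.35 ± 0.20, or 3.84-, 3.27- and 2.55-fold.

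*Txnrd1* (NM_001042523) encodes cytosolic thioredoxin reductase, which keeps thioredoxin reduced. Its signal was 21057 for DMSO, 35940 for MG132, 38528 for epoxomicin and 32705 for ONX0914. The log2 difference was 0.96 ± 0.20, 0.85 ± 0.20 and 0.67 ± 0.20, or 1.94-, 1.80- and 1.59-fold, so the gene lay just outside the 2-fold threshold with MG132. It crossed the threshold with MG132 under 3 other settings, at 1.15 under normexp background correction fitted on all spots, 1.01 under quantile normalization and 1.16 with *Hprt* as the only scaling, and with epoxomicin under the last of these, at 1.02.

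*Prdx1* (NM_011034) encodes a cytosolic peroxiredoxin. Its signal was 69172 for DMSO, 77901 for MG132, 82268 for epoxomicin and 94817 for ONX0914, with the DMSO array lowest. Relative to DMSO it differed by 0.36 ± 0.20, 0.23 ± 0.20 and 0.49 ± 0.20 (log2). The other probe of *Prdx1* gave larger differences of 0.75, 0.52 and 0.71, from signals of 2237, 3309, 3271 and 3570. The 2 probes disagreed on which inhibitor gave the largest difference, and both stayed under 2-fold.

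*Txn1* (NM_011660) encodes thioredoxin, the substrate of *Txnrd1*. Its signal was 76040 for DMSO, 53165 for MG132, 60875 for epoxomicin and 74841 for ONX0914, so the DMSO array was the highest. Against DMSO it stood at −0.33 ± 0.20 under MG132, −0.35 ± 0.20 under epoxomicin and 0.01 ± 0.20 under ONX0914 on the log2 scale. The reductase and its substrate thus lay on opposite sides of DMSO with MG132 and with epoxomicin, and neither passed 2-fold.

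*G6pdx* (NM_008062) encodes glucose-6-phosphate dehydrogenase, the entry enzyme of the pentose phosphate pathway and a main source of the NADPH that both reductases use. Its signal was 20418 for DMSO, 18205 for MG132, 17612 for epoxomicin and 22685 for ONX0914. Its log2 differences were 0.02 ± 0.20, −0.24 ± 0.20 and 0.19 ± 0.20, and the sign with MG132 changed under 4 of 10 other settings.

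**Figure D2:**
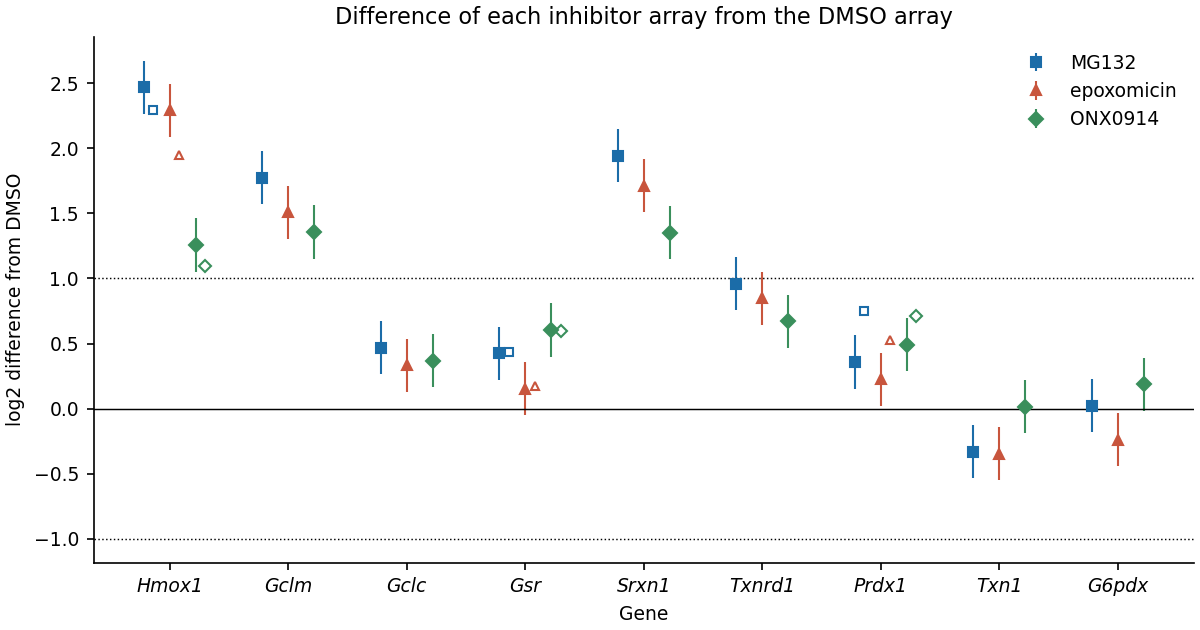
Log2 difference of each inhibitor array from the DMSO array for the 9 genes compared; filled symbols with bars are the probe that stands for the gene with the signal error of 0.20, small open symbols are a further probe, and dotted lines mark 2-fold. *Hmox1*, *Gclm* and *Srxn1* lie above the upper line with every inhibitor, and *Txnrd1* lies below it, at 0.96 for MG132, 0.85 for epoxomicin and 0.67 for ONX0914.

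Set among all genes compared, the 9 genes spread over a wide part of the distribution. *Gclm* and *Srxn1* took places 340 and 282 from the top of 13769 with MG132, 580 and 455 of 13869 with epoxomicin, and 267 and 271 of 13793 with ONX0914. *Txnrd1* lay above 92.2%, 89.3% and 93.7% of the genes. *Txn1* lay above only 25.6% of them with MG132 and 26.2% with epoxomicin. Of the 13462 genes compared with all 3 inhibitors, 272 were at least 2-fold higher with each, beside 3 of the 9 antioxidant genes.

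**Figure D3:**
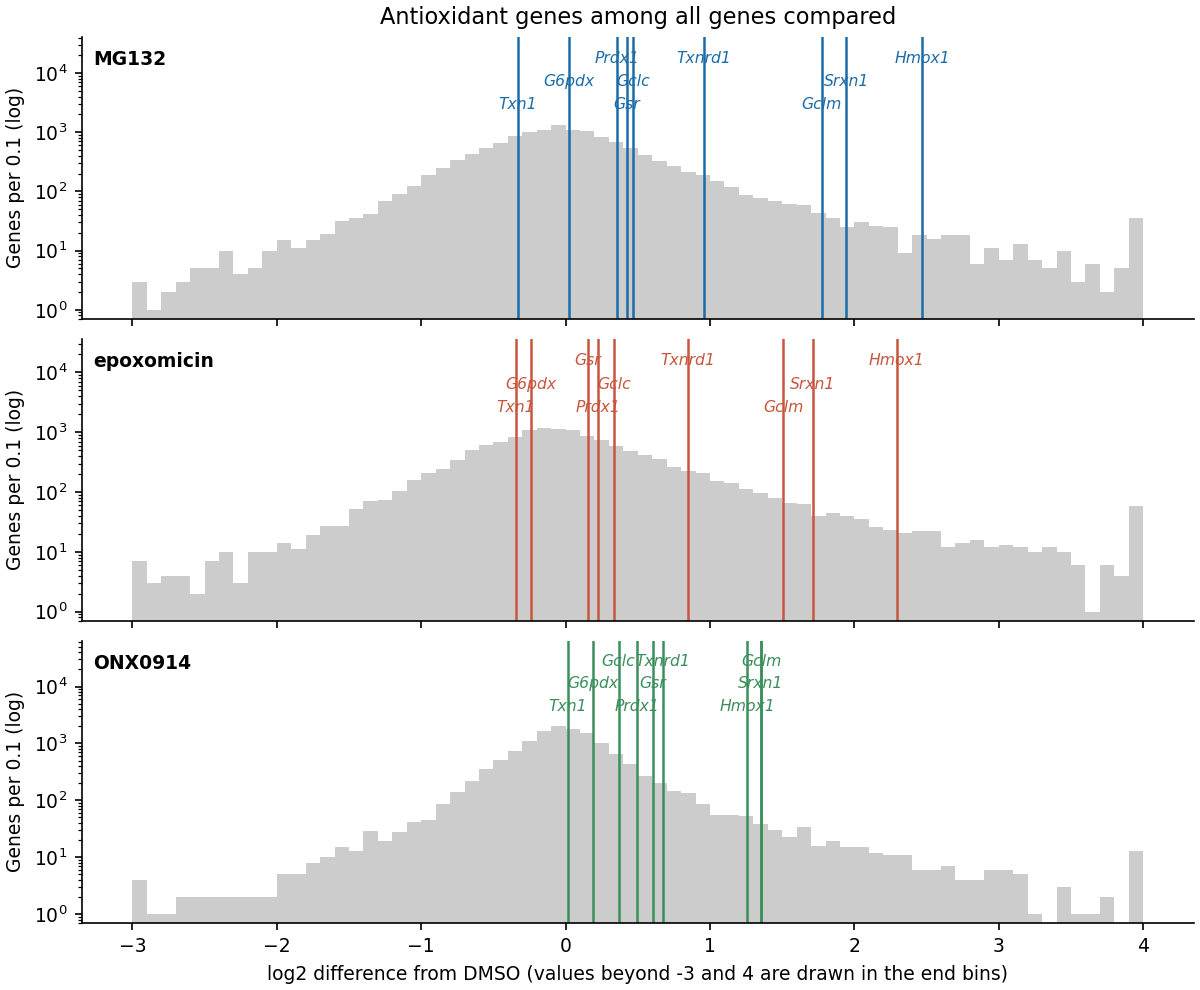
Number of genes per 0.1 of log2 difference from DMSO (log axis) for MG132, epoxomicin and ONX0914, with the 9 genes as vertical lines. *Hmox1*, *Srxn1* and *Gclm* lie in the upper tail with each inhibitor, and *Txn1* and *G6pdx* lie in the bulk of the genes.

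The inhibitors were used at the same dose and for the same time, so their arrays could be set side by side in 3 pairs, again without a test. Between MG132 and epoxomicin, none of the 9 genes differed by 2-fold, and 1.5% of all genes did. All 9 were nominally higher with MG132, by 0.02 to 0.27 on the log2 scale, when 50% of all genes were. The differences of *Gclm*, *Gsr*, *G6pdx* and *Srxn1*, 0.23 to 0.27, were above the error of 0.20, and the other 5 were within it. Without scaling between arrays, 4 of the 9 were higher with MG132.

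Between MG132 and ONX0914, *Hmox1* alone of the 9 genes was at least 2-fold apart (4.12% of all genes were), with a log2 difference of 1.21 ± 0.20, or 2.32-fold higher with MG132. Its other probe gave 1.19. *Srxn1* was 0.59 ± 0.20 and *Gclm* 0.42 ± 0.20 higher with MG132. *Txn1*, *Gsr*, *G6pdx* and *Prdx1* were nominally higher with ONX0914, and only the difference of *Txn1*, −0.34 ± 0.20, exceeded the error of the signals. The other probe of *Prdx1* gave 0.04, on the other side of 0. The number of the 9 genes higher with MG132 ran from 4 without scaling to 7 with *Hprt* as the only scaling.

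Between epoxomicin and ONX0914, *Hmox1* was again the only one of the 9 at least 2-fold apart (5.94% of all genes were), at 1.04 ± 0.20. This value lay just inside the threshold, and the other probe gave 0.85. The mean of both probes, at 0.94, and a shift of the arrays to their median, at 0.97, fell short of the threshold. *Gsr*, *G6pdx*, *Txn1* and *Prdx1* were lower with epoxomicin than with ONX0914, by differences of −0.45, −0.43, −0.36 and −0.27, each ± 0.20. The other probe of *Prdx1* gave −0.19, within the error of the signals. *Srxn1* was 0.36 ± 0.20 higher with epoxomicin. *Gclm* (0.15), *Txnrd1* (0.17) and *Gclc* (−0.03) differed by less than 0.20. An interval for a difference between treatments would need repeated cultures, so like values do not show that the inhibitors act alike on these genes.

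The rest of the pathway was examined through 8 lists of genes that hold none of the 10 above. The counts of each list are read against the share of all genes at least 2-fold higher, 7.24% under MG132, 8.41% under epoxomicin and 3.27% under ONX0914. Among 18 compared genes of glutathione supply and use, 3 were at least 2-fold higher with MG132 and with epoxomicin and 1 with ONX0914, the last a share near that of all genes, and none was lower. *Slc7a11*, the cystine transporter subunit that brings in the limiting building block of glutathione, had a signal of 27.7 for DMSO, 1206 for MG132, 1231 for epoxomicin and 491 for ONX0914. Its log2 difference was 5.63, 5.45 and 4.19. The DMSO signal was near the background, and normexp correction fitted on all spots lowered the differences to 2.45, 2.23 and 1.09.

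*Slc3a2*, the heavy chain that partners *Slc7a11*, differed by 1.44, 1.33 and 0.99. *Ggct*, an enzyme of glutathione turnover, differed by 1.34, 1.68 and 0.28. Enzymes that use glutathione stayed under 2-fold, and the transferase *Gstp1* differed by −0.83, −0.92 and −0.11 and the peroxidase *Gpx1* by −0.33, −0.38 and −0.06. Some passed 2-fold lower in other settings. Without scaling, *Gstp1* stood at −1.02 with MG132. Under normexp fitted on all spots, *Gsta3* stood at −1.20 with epoxomicin and −1.17 with ONX0914, and *Gstm1* at −1.01 with epoxomicin. The list's median was −0.16 for MG132, −0.24 for epoxomicin and 0.10 for ONX0914.

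Of 12 further genes of the thioredoxin and peroxiredoxin system, *Sesn2*, a stress-induced sestrin, was the only one at least 2-fold higher, at 3.00, 3.06 and 2.52, and none was lower. For MG132 and epoxomicin, 1 of 12 is close to the 7.24% and 8.41% of all genes. The peroxiredoxins *Prdx2* to *Prdx6* all stayed under 2-fold, and *Prdx2* differed by −0.59, −0.73 and −0.12. The median of the 12 was −0.19, −0.26 and −0.01.

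Of 9 further genes of NADPH supply, *Me1*, the cytosolic malic enzyme, was the only one at least 2-fold higher, at 1.45, 1.38 and 1.33. For MG132 and epoxomicin, 1 of 9 is near the 7.24% and 8.41% of all genes. *Pgd*, the dehydrogenase that follows *G6pdx* in the pentose phosphate pathway, differed by 0.51, 0.27 and 0.56. The list's median was −0.36, −0.34 and −0.10, and none was 2-fold lower. With a shift to the median, *Rpia* did pass 2-fold lower with epoxomicin, at −1.03.

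Of 10 genes of heme and iron handling, the iron exporter *Slc40a1* was at least 2-fold higher with MG132 (1.62) and epoxomicin (1.49), and differed by 0.43 with ONX0914. Again 1 of 10 is near the 7.24% and 8.41% of all genes. *Hmox2*, the constitutive heme oxygenase, differed by −0.10, −0.04 and 0.04, and the ferritin chain *Fth1* by 0.25, 0.07 and 0.02. None was 2-fold lower, and the median was 0.17, −0.02 and 0.03.

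Of 11 compared genes of detoxification and other Nrf2 targets, at least 2-fold higher were 4 under MG132, 3 under epoxomicin and 3 under ONX0914, beside 7.24%, 8.41% and 3.27% of all genes, and none was lower. Under normexp correction fitted on all spots the count was 2 with each inhibitor. *Sqstm1*, an autophagy receptor that binds Keap1, differed by 2.60, 2.35 and 1.97, and *Osgin1*, an oxidative stress response gene, by 1.84, 1.40 and 1.61. *Trim16* (1.36, 0.70 and 1.43) and the carbonyl reductase *Cbr3* (1.01, 1.09 and 0.22) were dim, and neither reached 2-fold with any inhibitor in that setting. With MG132, *Cbr3* passed 2-fold in only 4 of the 11 settings tried, and it also fell short without scaling, with quantile normalization, with a shift to the median, with the percentile over detected probes, with normexp fitted without outlier spots and in the authors' table. The median was 0.35, 0.27 and 0.22.

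Among 9 genes that regulate Nrf2 or share its elements, 3 were at least 2-fold higher with MG132 and with epoxomicin and 2 with ONX0914, beside 7.24%, 8.41% and 3.27% of all genes, and none was lower. The repressor *Bach1* differed by 1.73, 1.84 and 1.15, and its signal was 1123, 3263, 4097 and 2424 in the order used above. The small Maf genes *Maff* (1.45, 2.05 and 1.08) and *Mafk* (1.37, 1.49 and 1.00) followed, where the last value of *Mafk* was 1.996-fold, just under the threshold, and the last of *Maff* fell to 0.74 under normexp correction fitted on all spots. *Nfe2l2*, the gene of Nrf2 itself, differed by 0.66, 0.75 and 0.38, and *Keap1* by −0.09, −0.36 and 0.03. The median was 0.66, 0.60 and 0.43.

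None of 7 compared genes of other antioxidant enzymes, the superoxide dismutases and catalase among them, was 2-fold higher or lower with any inhibitor. Of all genes, 7.24%, 8.41% and 3.27% were at least 2-fold higher and 3.65%, 4.49% and 1.41% at least 2-fold lower. For lists as short as those here, a count of none is near these shares. *Sod1* differed by 0.25, 0.25 and 0.40, with list medians of −0.19, −0.18 and 0.03. None of the 6 NADPH oxidase genes, which make the superoxide of the oxidative burst, passed 2-fold either, with medians of −0.26, −0.32 and −0.06 and the widest difference in *Rac2*, at −0.78, −0.87 and −0.22. Of the 10 reference genes, none was 2-fold higher and *Gusb*, a lysosomal glucuronidase, was 2-fold lower with MG132 (−1.48) and epoxomicin (−1.36). The reference genes had medians of −0.11, −0.14 and −0.03.

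Some list medians changed sign over the 11 settings tried. For MG132, the median of the glutathione list ran from −0.34 without scaling to 0.05 with *Hprt* as the only scaling, and that of the reference genes from −0.30 to 0.09 under the same settings. The median of the detoxification list ran from −0.44, with the mean over a gene's probes, to 0.56 with *Hprt*. With epoxomicin it ran from −0.40 to 0.44 under the same settings. The medians of this list given above, 0.35 with MG132 and 0.27 with epoxomicin, were the values of *Aldh3a1*. The mean over the probes of *Aldh3a1* gave −0.63 and −0.69. The median of the 9 antioxidant genes was above 0 in all 11, from 0.28 to 0.67 with MG132, 0.26 to 0.51 with epoxomicin and 0.55 to 0.72 with ONX0914.

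**Figure D4:**
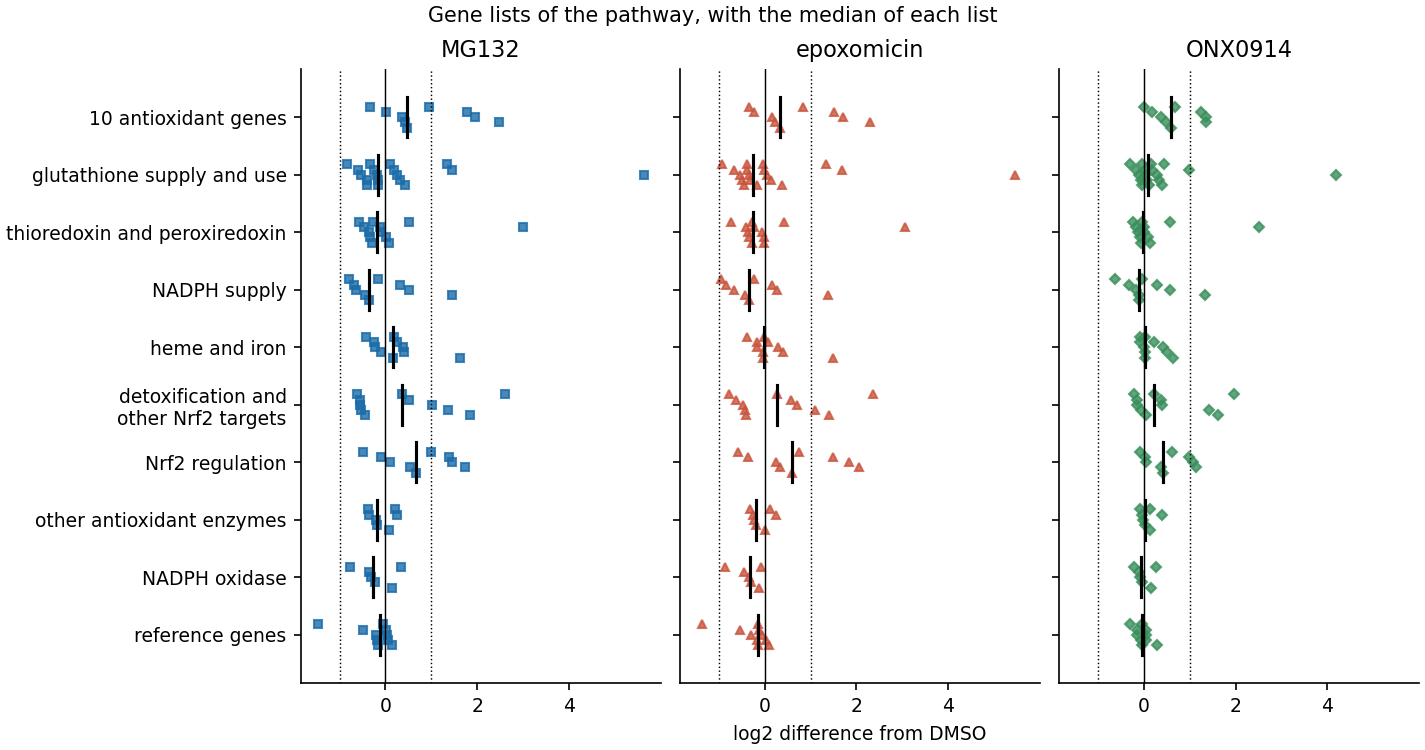
Log2 difference from DMSO of every compared gene of the 10 antioxidant genes, of the 8 pathway lists and of the reference genes with MG132, epoxomicin and ONX0914; black bars are list medians and dotted lines mark 2-fold. Single genes such as *Slc7a11* and *Sesn2* stand far to the right of lists whose medians lie near 0.

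The genes whose 3 differences from DMSO lay nearest to those of *Hmox1*, by Euclidean distance among 12729 genes well above background on all arrays, were *Alox12* (distance 0.14), *Procr* (0.20), *Pvt1* (0.22), *Trmt61b* (0.26) and *Cth* (0.29). None of them is on the lists above. *Alox12*, which encodes a lipoxygenase, had a signal of 17.6 for DMSO, 93.9 for MG132, 86.6 for epoxomicin and 41.2 for ONX0914, close to background on the first. *Cth*, which encodes an enzyme that makes cysteine, had signals of 1661, 8014, 9817 and 4293. Likeness over 3 values that share one control array is a description only.

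**Figure D5:**
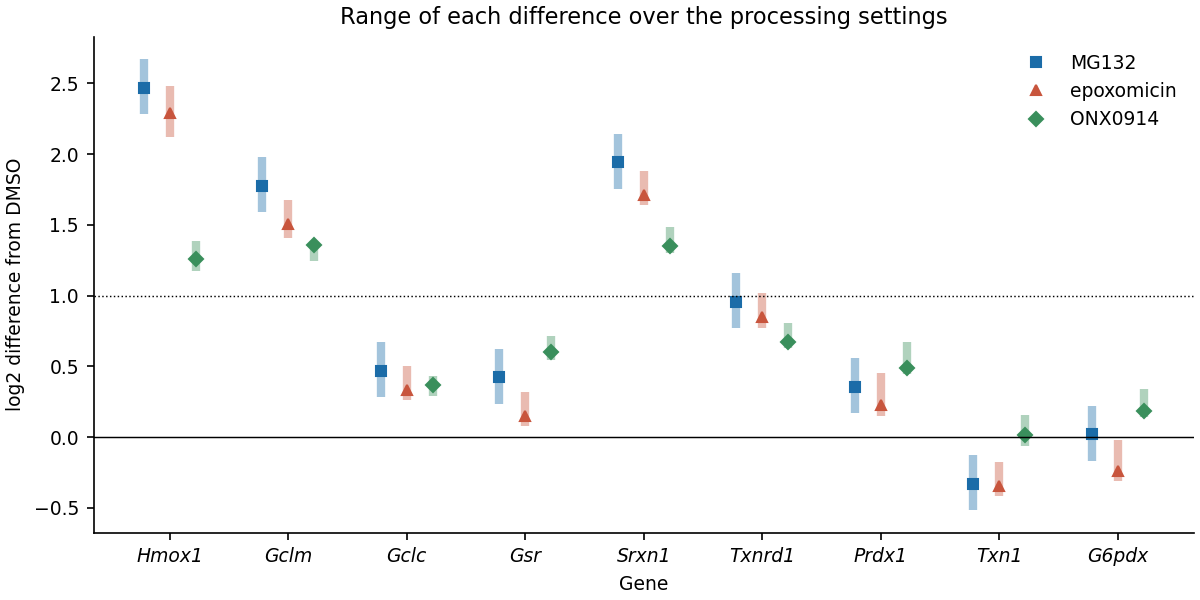
Log2 difference of each of the 9 genes from DMSO (symbols) with its range over 10 other ways of processing the arrays (bars); dotted lines mark 2-fold. The bars of *Hmox1*, *Gclm* and *Srxn1* stay above 2-fold with each inhibitor, and those of *Txnrd1* cross it with MG132 and epoxomicin.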

How the data were processed

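Total RNA of J774.1 cells was labeled with Cy3 and hybridized to 4 single-color arrays. Feature Extraction 10.7.1.1 read the spots, and the authors deposited its output, with raw and background-subtracted intensity and with calls of 0 or 1 for saturated, outlying and clearly detected spots. These intensities were not scaled between arrays. A second file that the authors deposited holds log2 values from GeneSpring. Against the scaled intensities, with each probe centered on its median, its columns had slopes of 0.997 to 1.00 and Pearson correlations of 0.9997 to 0.9999 over 22418 probes, with column medians of −0.05 to 0.02, and it was used as an alternative.

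For each spot that was neither a control nor an outlier, log2 of the processed signal was taken and the array's 75th percentile subtracted. Spots of one probe were averaged. Of 39429 probes, 26581 (67.4%) were named by matching transcript accessions to the RefSeq table of GRCm38.p6, and no genome coordinate of the files entered. The probe with the highest mean stood for a gene. Genes well above background on 1 or both arrays of a pair were compared, and a dim signal was replaced by a bound, its own value or the array's lowest signal well above background, whichever was higher.

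The genes and gene lists were chosen with earlier results of these data known. Genes named are the 10 antioxidant genes, list members past 2-fold with an inhibitor and the 5 genes nearest to *Hmox1* in profile. List members under 2-fold that are named with values, such as *Gstp1*, *Gpx1*, *Pgd* and *Sod1*, were picked after their values were seen. The alternatives were normexp background correction with or without outlier spots, a shift to the median, quantile normalization, the percentile over detected probes, *Hprt* or no scaling, the GeneSpring table, the mean over probes, no bounds, and for counts 1.5-fold and 4-fold thresholds and a stricter filter on dim probes. The calculation was run on simulated data with known shifts past the threshold and noise as wide as the spread between spots of one probe. This checks the code only, since no spread between cultures was simulated. Python 3.11.15 with numpy 2.4.6, pandas 2.3.3 and matplotlib 3.10.9 was used, and normexp (offset 50) was run in limma 3.58.1 under R 4.3.3. The real-time PCR and the mouse experiments were not analysed here.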

Additional observations from a re-analysis of the deposited data

How the results depend on the processing

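The number of arrays limits the precision, since 1 array per treatment leaves no replicate spread. A change of 0.0870 or more on the log2 scale was taken as a move, which is the SD between spots of one probe (0.0615) times the square root of 2. No paired analysis was possible because each treatment had a single array.

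Of 270 single values of the antioxidant genes under 10 alternatives, 203 stayed within that limit and 67 moved. The sign changed for *G6pdx* with MG132 in 4 settings and for *Txn1* with ONX0914 in 5, both near 0. The median of the 9 genes with MG132 was 0.57 under normexp fitted on all spots, 0.37 with a shift to the array median, 0.28 without scaling, 0.67 with *Hprt* as the only scaling and 0.55 with the mean over a gene's probes. With epoxomicin it was 0.46 under normexp and 0.51 with *Hprt*, and with ONX0914 it was 0.72 under normexp. At a 4-fold threshold 1 gene passed under MG132, 1 under epoxomicin and 0 under ONX0914, and at 1.5-fold 5 genes passed with ONX0914. With MG132 and with epoxomicin, *Hmox1*, *Gclm*, *Srxn1* and *Txnrd1* passed 1.5-fold. The share of all genes past 1.5-fold or 4-fold was not calculated, so these counts have no background beside them. The median of all genes moved too. Normexp fitted on all spots took it to −0.27 under MG132, −0.30 under epoxomicin and −0.17 under ONX0914. Among the scalings it ran from −0.20 (none) to 0.19 (*Hprt*) under MG132, from −0.11 (shift to the median) to 0.13 (*Hprt*) under epoxomicin and from −0.05 (detected probes) to 0.02 (*Hprt*) under ONX0914. Under normexp the share of all genes at least 2-fold higher was 3.43% for MG132, 4.14% for epoxomicin and 1.40% for ONX0914. The cause was not tested.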
